A study of Mus musculus with 2 samples.

Results

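Immediate early genes and heat shock genes were compared between cartilage cells and other cells sorted from mouse embryos. The list held 48 genes in 5 groups, namely 9 AP-1 genes, 8 Egr and Klf genes, 3 Nr4a genes, 18 other early genes and 10 heat shock genes. They were chosen by symbol, through array probe sets that the platform annotation pairs with that symbol alone, and 103 of 45101 probe sets met this rule. All 48 genes reached the floor of 22.5, the median of all non-control signals, on at least 1 array and thus count as measured, and they are 48 of 11789 measured genes. The embryos carried the Col2a1-Venus transgene on a C57Bl/6 background, and the series description states that the GFP-derived protein Venus marks their chondrocytes. The Venus-positive and the Venus-negative fraction were separated by fluorescence-activated cell sorting, both carry the transgene, and 1 Affymetrix array was hybridised per fraction from 100 ng of total RNA. Embryo age and number, the dissociation and the sort gates are not stated. With 1 array per fraction there is no replicate error and no test, and every difference below describes these 2 arrays.

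Immediate early genes are switched on within minutes of a stimulus by transcription factors already present in the cell, without new protein synthesis. Their messenger RNAs are short-lived, and many encode transcription factors or proteins that shut the signal down again. Heat shock genes are driven by heat shock factor when proteins misfold, and encode chaperones. Both groups are known to be induced when tissue is dissociated into single cells, so they are often read as a sign of handling. Several members also have roles of their own in cartilage and other tissues. No tissue left undissociated was analysed here, so the part of dissociation in these levels was not tested.

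Nearly all early genes gave signals well above the floor in both fractions, and those that differed by 2-fold were higher in the Venus-positive one. The 3 Nr4a genes, Klf2, Klf9, Klf10, Junb and Ier3 stood 1.88- to 3.58-fold higher there. As deposited, Fos and Egr1 were close to level and the heat shock genes ran from 1.49-fold lower to 1.44-fold higher. Of the 48 members, 8 had an at least 2-fold higher signal in Venus-positive cells on the deposited scale (16.7%, against 2.79% of all measured genes) and none was 2-fold lower (against 11.6%). The Venus-positive array was dimmer, with a median log2 ratio of -0.33 over all measured genes, a 1.26-fold lower signal. The trimmed mean of all signals was 109 against 133, and the hybridisation controls, bacterial and phage transcripts added to every array, had a log2 ratio of -0.29. Relative log2 ratios below have the median of -0.33 subtracted. On this relative scale 13 members were at least 2-fold higher (27.1%, against 5.06% of all measured genes) and none was lower (against 6.45%). The same shares of all measured genes are the background for the counts by group and by list below. The members had a median log2 ratio of 0.14 as deposited and 0.48 relative to the median gene, and 38 of 48 lay above that gene. Fos and Egr1, close to level as deposited, had relative log2 ratios of 0.41 and 0.51. No member reached 4-fold on the deposited scale.

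**Figure D1:**
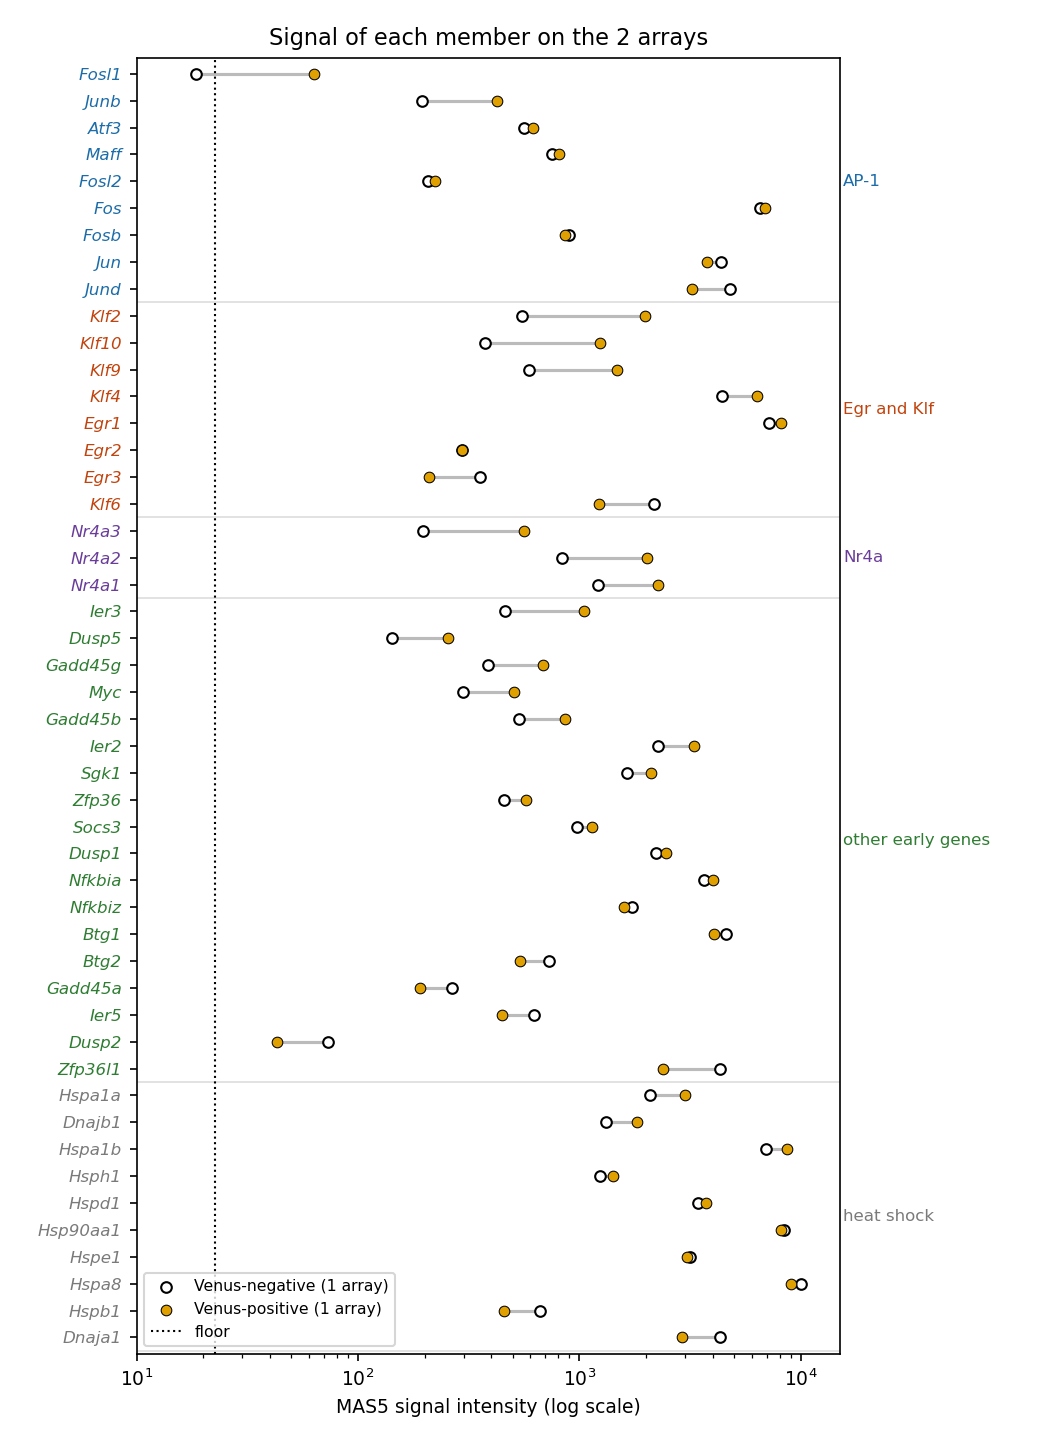
Signal intensity of each of the 48 members (log axis) on the Venus-negative array (open circles) and the Venus-positive array (filled circles), 1 array each, with the floor of 22.5 as a dotted line. Fosl1 alone lies below the floor on an array, at 18.6 in Venus-negative cells, while Fos lies at 6518 and 6896.

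Of the 48 members, 47 were at or above the floor on both arrays, so their folds are measured on both sides. Among all genes measured on both sides, 2.53% were 2-fold higher and 9.84% 2-fold lower on the deposited scale, and 4.76% and 5.04% on the relative one. Of the 47 members measured on both sides, which leaves out Fosl1, 7 were 2-fold higher as deposited and 12 relative to the median gene. A further guide to the error is the agreement of probe sets of 1 gene, which share the same 2 RNA samples and therefore hold no error between samples. Across the 23 members with more than 1 measured probe set, the standard deviation of the log2 ratios had a median of 0.15 and was highest, at 0.60, for Klf9. Across all 5445 genes with several measured probe sets it was larger, with a median of 0.21 and a pooled value of 0.34. In 20 of the 23 members all measured probe sets lay on 1 side of 0 as deposited, and the exceptions were Btg1, Nfkbia and Nfkbiz. The exceptions depend on the scale. On the relative scale Nfkbia and Nfkbiz lay on 1 side, and those on both sides were Btg1, Jun, Hspa8 and Hsp90aa1. The other 25 members rest on 1 measured probe set each.

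**Figure D2:**
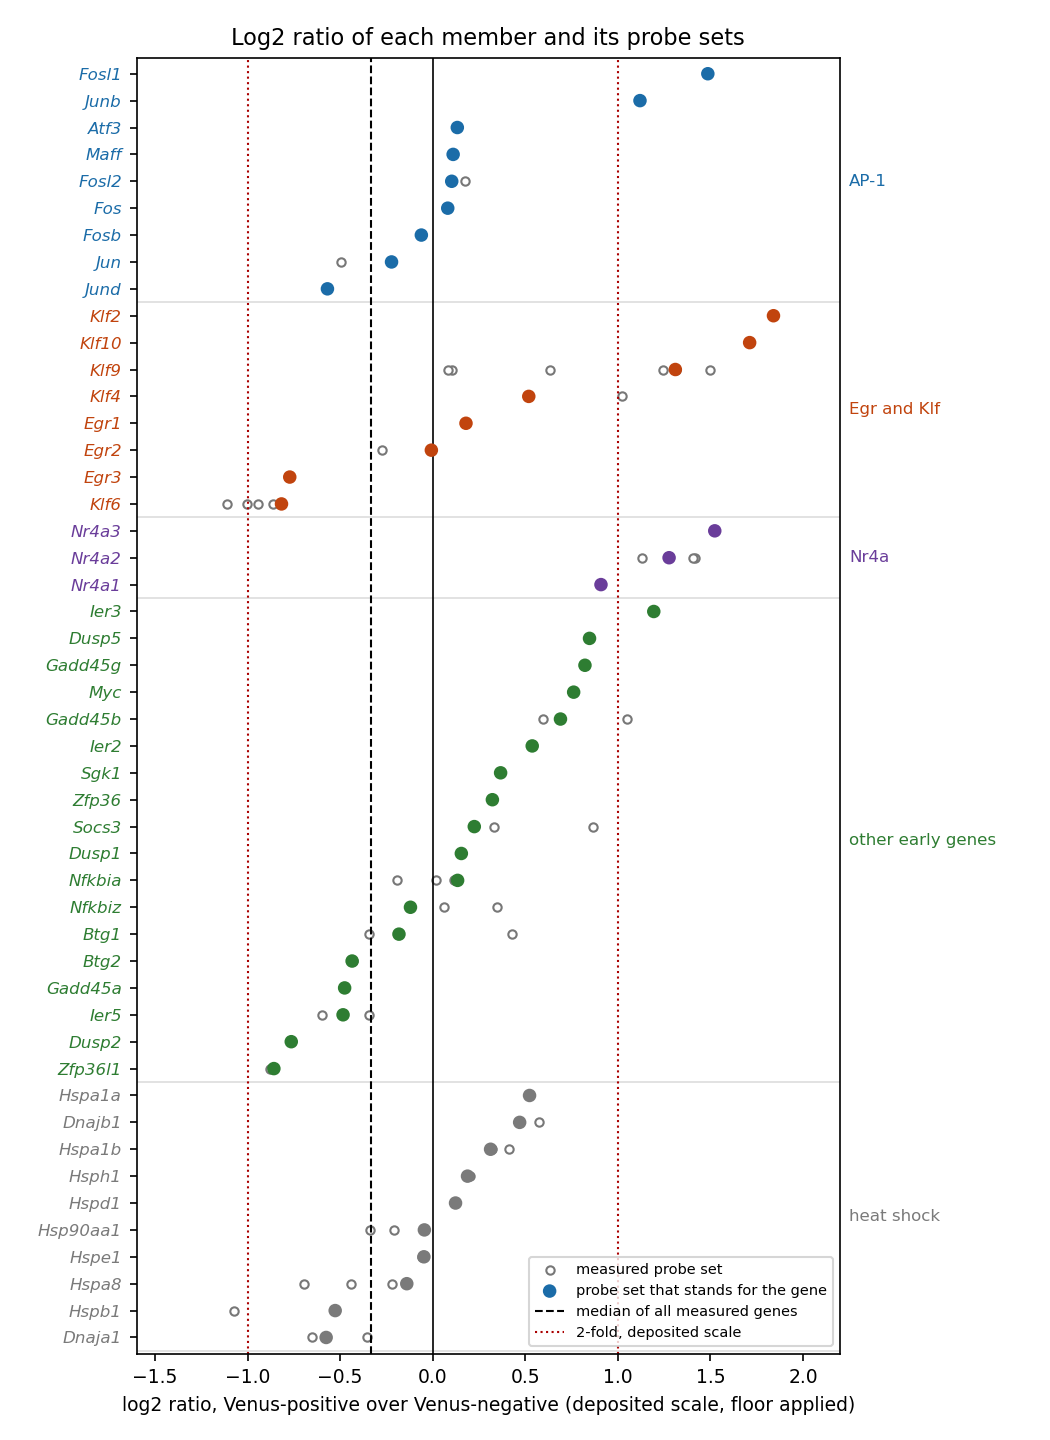
Log2 ratio (Venus-positive over Venus-negative) for each member (filled circles) and for each of its measured probe sets (open circles), on the deposited scale. The dashed line is the median of all measured genes (-0.33) and the dotted lines mark 2-fold. The 8 members to the right of the upper line are Fosl1, Junb, Klf2, Klf9, Klf10, Nr4a2, Nr4a3 and Ier3.

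AP-1 is a dimer of a Fos and a Jun protein, or of their relatives, that binds DNA as a general output of growth and stress signals. Its principal early members were near level between the fractions on the deposited scale. Fos had a signal of 6518 in Venus-negative and 6896 in Venus-positive cells, a log2 ratio of 0.08 (relative 0.41). Fosb, a close relative, was at 898 and 860. Jun was at 4376 and 3751, and its 2 probe sets gave log2 ratios of -0.22 and -0.49. Jund, which many cells express without stimulation, was at 4786 and 3227, 1.48-fold lower in Venus-positive cells, or -0.24 on the relative scale. Atf3, a stress-induced repressor of the ATF family, was at 560 and 614. Maff, a small Maf protein, was at 751 and 811, and Fosl2, a Fos relative of skeletal cells, at 207 and 222. These 7 genes spanned log2 ratios from -0.57 to 0.13 (relative -0.24 to 0.46).

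Junb and Fosl1 were the AP-1 genes that differed by 2-fold. Junb, which pairs with Fos and can restrain Jun, had 195 in Venus-negative and 424 in Venus-positive cells, 2.17-fold higher, on its 1 probe set. Fosl1, which encodes Fra-1, had 18.6 and 63.0, at least 2.80-fold higher, because the Venus-negative side lies below the floor. The other Fosl1 probe set was below the floor on both arrays, at 6.5 and 4.5, so this difference is between low signals on 1 probe set. The group thus had 2 of 9 genes higher on either scale and none lower, with a median log2 ratio of 0.10 (relative 0.43).

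The Egr and Klf genes encode zinc finger factors, and they split within the family. Egr1, the classical serum-induced factor, had 7166 in Venus-negative and 8117 in Venus-positive cells, a log2 ratio of 0.18 (relative 0.51). Egr2 was level as deposited, at 296 and 295 (relative log2 ratio 0.32). Egr3 was at 356 and 209, 1.71-fold lower in Venus-positive cells and -0.44 on the relative scale. None of the 3 Egr genes was thus 2-fold apart.

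Of the 5 Klf members, 3 were at least 2-fold higher in Venus-positive cells and 1, Klf6, was lower on every probe set. Klf2, best known as a flow-induced factor of endothelium, had the largest difference of all members, with 553 in Venus-negative and 1980 in Venus-positive cells, 3.58-fold higher and 2.17 on the relative log2 scale. Klf10, a target of TGF-beta signalling also called TIEG1, was at 376 and 1232, 3.28-fold higher. Both rest on 1 probe set. Klf9, a glucocorticoid- and thyroid hormone-responsive factor, was at 593 and 1471, 2.48-fold higher. Its 7 measured probe sets all lay above 0, but unevenly. The lowest, at 2.01 and 23.9, gave a log2 ratio of at least 0.08, because its Venus-negative side lies below the floor. Probe sets above the floor on both arrays also disagreed. The next lowest, at 118 and 126, gave 0.10, and another, at 25.3 and 39.2, gave 0.63, both below 2-fold. The rest were past 2-fold, and the highest had signals of 395 and 1116. The mean over all 7 was 0.88, below 2-fold, and that over the 6 above the floor on both arrays was 1.02.

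Klf4, a factor of epithelial differentiation and reprogramming, was at 4397 and 6300, 1.43-fold higher, and its other probe set at 1670 and 3390, a log2 ratio of 1.02. The probe sets therefore fall on different sides of 2-fold, while agreeing in sign. Klf6, an injury-induced factor, was at 2168 in Venus-negative and 1231 in Venus-positive cells, 1.76-fold lower. Its 5 probe sets gave log2 ratios from -1.11 to -0.82, and on the relative scale the gene was at -0.49. The 8 genes of this group had 3 higher and none lower on either scale, with a median log2 ratio of 0.35 (relative 0.68).

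The Nr4a genes were the group in which every member was higher in Venus-positive cells. They encode orphan nuclear receptors (Nur77, Nurr1 and Nor1) whose activity is set mainly by how much is made, and their promoters are textbook targets of cAMP signalling through CREB. The part of cAMP signalling in the Nr4a levels was not tested. The 250 bases before the transcription start of each are given from RefSeq (GRCm38.p6), 5′ to 3′, with Fos for comparison. Capitals mark TGACG, the core of the cAMP response element, on either strand.
Nr4a1 (chr15:101266596-101266845, plus strand): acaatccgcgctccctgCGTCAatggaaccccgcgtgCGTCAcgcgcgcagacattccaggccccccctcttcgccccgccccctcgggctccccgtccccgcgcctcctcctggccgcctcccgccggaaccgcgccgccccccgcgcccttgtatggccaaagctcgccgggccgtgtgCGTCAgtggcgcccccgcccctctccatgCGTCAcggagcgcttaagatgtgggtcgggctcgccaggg
Nr4a2 (chr2:57124004-57124253, minus strand): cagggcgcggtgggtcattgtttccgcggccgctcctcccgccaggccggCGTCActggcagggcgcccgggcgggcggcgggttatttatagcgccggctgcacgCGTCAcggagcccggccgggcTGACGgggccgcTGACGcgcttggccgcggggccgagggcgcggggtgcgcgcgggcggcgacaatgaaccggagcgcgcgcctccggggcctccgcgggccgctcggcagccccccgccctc
Nr4a3 (chr4:48045055-48045304, plus strand): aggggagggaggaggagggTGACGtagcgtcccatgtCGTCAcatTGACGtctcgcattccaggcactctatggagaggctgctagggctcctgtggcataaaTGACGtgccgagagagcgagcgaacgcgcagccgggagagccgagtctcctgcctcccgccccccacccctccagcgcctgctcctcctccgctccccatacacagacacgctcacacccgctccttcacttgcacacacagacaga
Fos (chr12:85473640-85473889, plus strand): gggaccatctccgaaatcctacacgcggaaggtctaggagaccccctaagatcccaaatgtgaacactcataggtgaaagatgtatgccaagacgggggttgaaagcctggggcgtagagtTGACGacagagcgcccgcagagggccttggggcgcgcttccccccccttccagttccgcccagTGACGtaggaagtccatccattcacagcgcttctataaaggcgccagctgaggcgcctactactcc

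Nr4a1 had a signal of 1210 in Venus-negative and 2272 in Venus-positive cells, 1.88-fold higher, with a relative log2 ratio of 1.24. Nr4a2 was at 833 and 2019, 2.42-fold higher, and its 4 measured probe sets gave log2 ratios from 1.13 to 1.41. Its 2 other probe sets were below the floor on both arrays. Nr4a3 was at 196 and 563, 2.87-fold higher, on the 1 of its 3 probe sets that was measured. Past 2-fold were 2 of 3 genes on the deposited scale and 3 of 3 relative to the median gene, with median log2 ratios of 1.28 and 1.61. The Nr4a1, Nr4a2 and Nr4a3 windows each hold 4 matches to TGACG and the Fos window holds 2, of which 1 begins 66 bases before the start. Windows with 4 or more matches, a number taken from these Nr4a windows, are 0.137% of the 32851 promoter windows of the same length. This share is therefore no test. Among the 39 members with a window, no other has one.

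The 18 other early genes, many of which end or limit a signal, ranged from 1.81-fold lower to 2.29-fold higher. Ier3, an early gene linked to cell survival, had 459 in Venus-negative and 1050 in Venus-positive cells, 2.29-fold higher, and was the 1 gene of this group past 2-fold on the deposited scale. Ier2 was at 2254 and 3271, 1.45-fold higher, whereas Ier5 was at 624 and 446, with all 3 of its probe sets below 0. The 3 Ier genes thus lay on both sides of 0.

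Phosphatases that switch off MAP kinases also differed among themselves. Dusp5, a nuclear phosphatase for ERK, had 142 and 255, 1.80-fold higher in Venus-positive cells and 1.18 on the relative log2 scale. Dusp1, a common marker of dissociated cells, was near level as deposited, at 2214 and 2465 (relative log2 ratio 0.49). Dusp2, common in lymphoid cells, was at 73.4 and 43.2, 1.70-fold lower.

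The Gadd45 genes encode small stress sensors that bind MAP kinase kinases and cell cycle proteins. Gadd45b was at 535 and 862, 1.61-fold higher in Venus-positive cells, with probe sets from 0.60 to 1.05 in log2 ratio. Gadd45g was at 386 and 683, 1.77-fold higher. Gadd45a, the member driven by p53, was at 266 and 191, 1.39-fold lower. Gadd45b and Gadd45g passed 2-fold on the relative scale (1.02 and 1.15), and Gadd45a was at -0.14. Myc, the growth-promoting factor, was at 298 and 505, 1.70-fold higher and 1.09 on the relative scale.

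Inhibitors of NF-kappaB and cytokine signalling were close to level on the deposited scale, with relative log2 ratios from 0.21 (Nfkbiz) to 0.56 (Socs3). Nfkbia, which encodes IkappaB-alpha, was at 3632 and 3987, with 5 probe sets from -0.19 to 0.13. Nfkbiz was at 1722 and 1584, with 3 probe sets from -0.12 to 0.35. Socs3, the feedback inhibitor of STAT3 signalling, was at 971 and 1135, a log2 ratio of 0.22, although 1 of its 3 probe sets gave 0.87. Sgk1, a serum- and glucocorticoid-induced kinase, was at 1631 and 2103, 1.29-fold higher.

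Zfp36 and Zfp36l1 encode proteins that bind AU-rich elements and speed the decay of early gene messages, and they lay on opposite sides. Zfp36 (tristetraprolin) was at 458 in Venus-negative and 572 in Venus-positive cells, a log2 ratio of 0.32. Zfp36l1 was at 4319 and 2383, 1.81-fold lower, with a log2 ratio of -0.86 and -0.88 on its 2 probe sets, and at -0.53 on the relative scale it was the lowest member. The antiproliferative genes Btg1 (4582 and 4039) and Btg2 (729 and 539) had log2 ratios of -0.18 and -0.44, and for Btg1 the 3 probe sets ran from -0.34 to 0.43. Across the 18 genes, 1 was 2-fold higher on the deposited scale and 5 were so relative to the median gene, none was lower, and the median log2 ratio was 0.19 (relative 0.52).

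**Figure D3:**
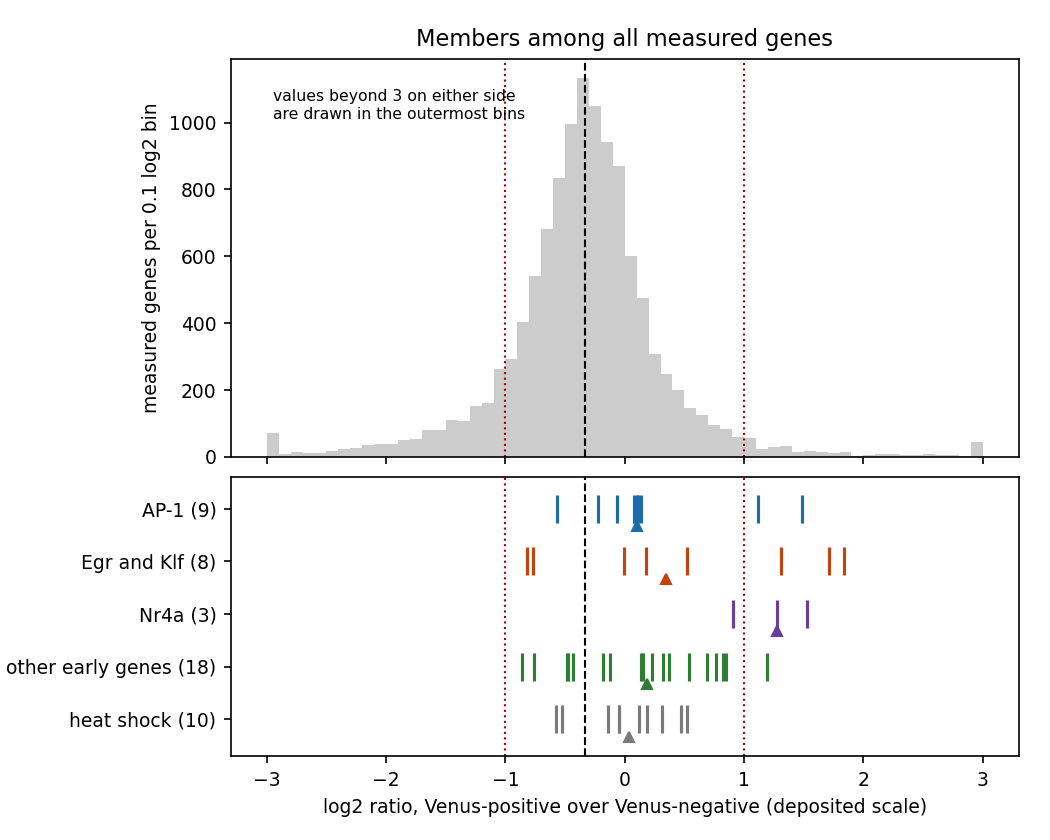
Top, log2 ratios (Venus-positive over Venus-negative) for all 11789 measured genes in bins of 0.1. Bottom, each member as a tick by group, with the group median as a triangle. The dashed line is the median of all genes (-0.33), and the 3 Nr4a ticks lie at 0.91, 1.28 and 1.52.

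Heat shock genes were all well above the floor in both fractions and none differed by 2-fold on either scale. Hspa1a and Hspa1b encode the inducible Hsp70 and lie next to each other on chromosome 17. Their promoters are shown because the genes are nearly copies. The 250 bases before the start differ at 3 positions, and array probes may bind the transcripts of both. Capitals mark GAANNTTC, the smallest inverted pair of heat shock factor units. A stretch of 30 bases before Hspe1 is added, whose neighbour Hspd1 lies beside it in the genome.
Hspa1a (chr17:34972157-34972406, minus strand): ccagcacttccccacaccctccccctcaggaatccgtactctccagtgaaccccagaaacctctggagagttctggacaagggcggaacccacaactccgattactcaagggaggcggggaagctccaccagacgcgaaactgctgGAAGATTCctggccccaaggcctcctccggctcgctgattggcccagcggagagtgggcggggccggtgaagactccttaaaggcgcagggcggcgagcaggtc
Hspa1b (chr17:34959239-34959488, minus strand): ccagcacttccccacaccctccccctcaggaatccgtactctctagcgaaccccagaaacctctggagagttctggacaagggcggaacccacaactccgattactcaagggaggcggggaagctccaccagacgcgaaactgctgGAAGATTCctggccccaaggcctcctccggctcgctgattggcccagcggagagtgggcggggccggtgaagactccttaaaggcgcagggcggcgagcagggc
Hspe1 (chr1:55088053-55088082, plus strand): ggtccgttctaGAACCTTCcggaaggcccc

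Hspa1a had a signal of 2081 in Venus-negative and 2990 in Venus-positive cells, 1.44-fold higher. Hspa1b was at 6935 and 8613, 1.24-fold higher, with 3 probe sets from 0.31 to 0.41 in log2 ratio. The inducible Hsp70 pair was thus above 0 on all 4 probe sets, with relative log2 ratios of 0.85 and 0.64 for the 2 genes. Dnajb1, the Hsp40 cochaperone that works with Hsp70, was at 1312 and 1817, 1.38-fold higher, and its other probe set gave a log2 ratio of 0.58. Hsph1, the nucleotide exchange factor Hsp110, was at 1237 and 1410, a log2 ratio of 0.19.

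Hspa8, Hsp90aa1, Hspd1 and Hspe1 were closer to 0 as deposited, on the probe sets that represent them. Hspa8, the constitutive Hsc70, was at 9963 and 9041, a log2 ratio of -0.14, though its 4 probe sets reached down to -0.70. Hsp90aa1, the inducible Hsp90, was at 8340 and 8083, with log2 ratios from -0.34 to -0.05 on 3 probe sets. Hspd1 (Hsp60) was at 3414 and 3718, and Hspe1 (Hsp10), its partner in the mitochondrial folding chamber, was at 3158 and 3056. The log2 ratios of this neighbouring pair were 0.12 and -0.05.

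Dnaja1 and Hspb1 were the heat shock genes below the median gene. Dnaja1, an Hsp40 that assists Hsc70, was at 4327 and 2904, 1.49-fold lower in Venus-positive cells, with 3 probe sets from -0.65 to -0.35. Hspb1, the small heat shock protein Hsp27, was at 660 and 458, 1.44-fold lower, and its other probe set gave a log2 ratio of -1.07. On the relative scale they lay at -0.24 and -0.20. The 10 heat shock genes had a median log2 ratio of 0.04 (relative 0.37), with 5 above and 5 below 0.

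Promoter windows were found for 39 of the 48 members in the RefSeq table of GRCm38.p6. TGACG was present before the start of 21 of these 39 genes, and of 19.8% of all 27025 genes with a window. It was found in 5 of 8 AP-1, 4 of 5 Egr and Klf, 3 of 3 Nr4a, 5 of 15 other early and 4 of 8 heat shock genes. Members with TGACG had a median log2 ratio of 0.15 and the 18 without it one of 0.12. The full palindrome TGACGTCA, which contains TGACG, was present in 3 of 39 members (Btg2, Dusp1 and Maff) and 1.77% of all genes. The CArG box, bound by serum response factor, was present in 3 of 39 (Dusp5, Egr2 and Zfp36) and 1.62% of all genes. GAANNTTC was present in 6 of 8 heat shock genes, in 9 of 39 members and in 7.73% of all genes. Both strands were searched, and a match is a description of these letters and not a binding site.

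Other genes of the same systems included some past 2-fold in either direction. The 13 measured further AP-1, Maf and CREB genes had a median log2 ratio of -0.24. On the deposited scale 2 were past 2-fold upward and 2 downward, against 2.79% and 11.6% of all measured genes. Relative to the median gene 2 were past it upward and 1 downward, against 5.06% and 6.45%. Jdp2, a Jun-binding repressor, was at 359 in Venus-negative and 1657 in Venus-positive cells, 4.62-fold higher on 1 probe set. Batf3 was at 72.1 and 146, 2.03-fold higher. Crem, a cAMP-responsive modulator, was at 161 and 40.9, 3.94-fold lower, with both probe sets at or below -1.92. Atf2 was at 1029 and 448, 2.30-fold lower, but its 5 probe sets ran from -1.20 to -0.43, and it was within 2-fold on the relative scale.

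The 9 further Klf genes had a median log2 ratio of 0.67. None was 2-fold higher on the deposited scale, and 4 were relative to the median gene, against 5.06% of all measured genes. Klf13 (238 and 394), Klf14 (35.3 and 62.7) and Klf16 (110 and 190.0) stood 1.65- to 1.78-fold higher in Venus-positive cells. Klf1, the erythroid factor, was at 78.5 and 14.9, at least 3.49-fold lower, and all 5 measured erythroid marker genes were at least 2-fold lower there as well.

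Among 38 further early response genes, 6 passed 2-fold upward and 3 downward on the deposited scale, against 14 and 3 relative to the median gene. The shares of all measured genes were 2.79% and 11.6% as deposited, and 5.06% and 6.45% relative to the median gene. Their median log2 ratio was 0.08. Bhlhe40, a clock- and hypoxia-linked repressor, was at 99.9 and 574, 5.74-fold higher in Venus-positive cells. The other 5 higher genes, named after their values were seen, were Ccn2 (3.75-fold), Cebpd (2.67-fold), Cdkn1a (2.51-fold), Phlda1 (2.12-fold) and Errfi1 (2.05-fold). The 3 lower genes were Ccl2, Il6 and Rgs1. The chemokine gene Ccl2 was at 105 and 10.2, at least 4.67-fold lower. Il6, the interleukin 6 gene, was at 98.9 and 3.53, at least 4.40-fold lower, and Rgs1, a regulator of G protein signalling in leukocytes, was at 112 and 21.2, below the floor.

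The upstream signalling genes and the further chaperones stayed near the median gene. None of 20 measured kinases and transcription factors upstream of early genes was 2-fold apart on either scale. Their median log2 ratio was -0.30 (relative 0.04). The most different as deposited were Hsf2, a heat shock factor (105 and 57.4), the MAP kinase kinase genes Map2k1 (326 and 192) and Map2k2 (437 and 268), and the Srf cofactor gene Mrtfa (91.3 and 59.5). This ranking favours lower genes, because the Venus-positive array was dimmer. The most different on the relative scale, named after their values were seen, were Stat3 (0.56), Elk3 (0.54) and Hsf2 (-0.54). The 44 further chaperones and cochaperones had a median log2 ratio of -0.23. None was past 2-fold upward and 3 were downward on the deposited scale, against 2.79% and 11.6% of all measured genes. Cryab, a small heat shock protein abundant in muscle and lens, was at 109 and 16.5, at least 4.85-fold lower, although its other measured probe set gave -0.60. Hspb8 (80.8 and 39.2) and Hspb2 (46.2 and 11.8) were 2.06-fold and at least 2.05-fold lower, and only Cryab was 2-fold lower on the relative scale.

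**Figure D4:**
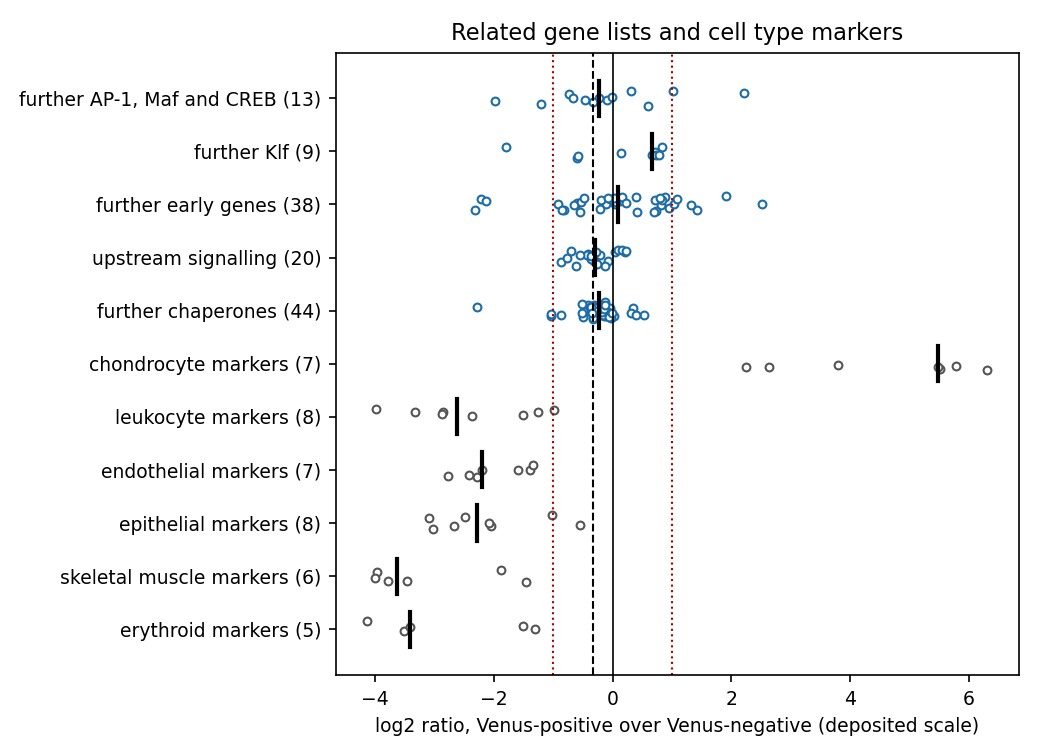
Log2 ratio (Venus-positive over Venus-negative) for each measured gene (circles) of 5 related lists and 6 marker lists, with the list median as a bar and the number of genes in parentheses. The dashed line is the median of all genes and the dotted lines mark 2-fold. Upstream signalling lies within 2-fold throughout, while the 7 chondrocyte markers run from 2.24 to 6.31.

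The sort labels were checked against markers, and the fractions also differed in markers of other cell types. All 7 chondrocyte markers were at least 2-fold higher in Venus-positive cells, with a summed signal of 35872 against 2979. Col2a1, whose reporter defined the sort and which is thus no finding, was at 8443 against 606. Markers of other cells were lower in the Venus-positive fraction, by 2-fold or more on the deposited scale, for 7 of 8 leukocyte, 7 of 7 endothelial, 7 of 8 epithelial, 6 of 6 skeletal muscle and 5 of 5 erythroid genes. Their summed signals in Venus-positive against Venus-negative cells were 217 against 1737 for leukocytes, 165 against 806 for endothelium, 384 against 1637 for epithelium, 293 against 3897 for muscle and 348 against 4140 for erythroid cells. No marker was listed at 0. Of the 34 measured markers of other cells, 15 were below the floor in Venus-positive cells and none in Venus-negative cells.

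Klf2 was 3.58-fold higher in the fraction with the lower endothelial markers. Ccl2, Il6, Rgs1, Cryab and Hspb2 were lower there, as were the markers of every other cell type listed, so no 1 type is singled out. The part of cell composition in these differences was not tested. As to RNA quality, the ratio of 3′ to 5′ signal was 1.33 on the Venus-negative and 1.64 on the Venus-positive array for beta-actin, and 0.76 and 0.74 for Gapdh, and its part in the results was not tested. In sorted bulk RNA, fewer cells expressing a gene and less RNA per cell cannot be told apart.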

How the data were processed

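Total RNA of 1 Venus-positive and 1 Venus-negative fraction was measured on 1 one-colour array each, and groups follow the labelled cell type. The deposited table holds 1 linear signal intensity per probe set, and the submitters' processing notes name MAS5 as the tool the authors used. No source used here gives its version, scaling target or detection calls, and the number of arrays limits the precision. The platform annotation paired 34945 of 45037 non-control probe sets with 1 symbol, and only these were used. All 48 members matched the RefSeq table of GRCm38.p6 by identifier and symbol. Signals below the floor of 22.5 were set to it before log2. Genes with a probe set at or above the floor on either array counted as measured. Each was represented by its probe set of highest mean log2 signal, and a fold with a side below the floor is written "at least". Calls are fixed 2-fold sizes and no tests.

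The members and lists were chosen with earlier results of these data known. Named in full were members 2-fold apart on either scale and the 3 of each group with the highest mean signal. Members with probe sets on both sides of 0 as deposited were also named. So were up to 4 genes per related list with the largest difference on the deposited scale. Other members were added after their values were seen. The 9 alternatives covered scaling, the floor, log2(signal + 16) without a floor, the mean over probe sets and leaving out _x_at and _s_at probe sets. Promoters were searched over 250 bases before each start. The procedure was run on simulated data whose planted changes were 4-fold or more, in genes well above the floor. It therefore does not measure the error near the 2-fold size used for the calls. Python 3.11.15, numpy 2.4.6 and pandas 2.3.3 were used.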

Additional observations from a re-analysis of the deposited data

How the results depend on the processing

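Of the 9 alternatives, centring on the median gene took the members at least 2-fold higher in Venus-positive cells from 8 to 13. The share of all measured genes, given in parentheses below, went from 2.79% to 5.06%. The count was 12 with a shared trimmed mean (4.64%), quantile normalization (5.1%) or hybridisation control scaling (4.66%). It was 7 with a floor at the 75th percentile (2.44%), at which Fosl1 and Dusp2 were not measured. The mean over probe sets also gave 7 (2.62%) and put Klf9 at 0.88. Without a probe set whose Venus-negative side lies below the floor, left out after seeing the data, Klf9 was at 1.02. The other alternatives left the count at 8 (1.7% to 4.27%). No alternative gave a member 2-fold lower. Of all measured genes, 6.39% (floor at the 75th percentile) to 16.1% (floor at the 25th percentile) were lower, so this background moved with the setting. The 6 medians, over all members and per group, moved by under 0.34, the pooled SD between probe sets that share a gene. Of 430 single-gene values, 426 moved by less than this, and the others besides Klf9 were Dusp2 (-0.34 with quantile normalization) and, without _x_at and _s_at probe sets, Socs3 (0.87) and Hspa8 (-0.70). The 4 scaling alternatives moved the median of all measured genes up by 0.27 to 0.33. Centring subtracts the same -0.33 from every gene, and scaling to a trimmed mean or the hybridisation controls offsets a log2 difference of -0.29. These shifts are smaller than the pooled SD from the outset, and changing the floor leaves members above it unchanged. The count of 426 was thus largely fixed in advance and is no measure of stability.

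No paired analysis was possible because each group has 1 array, and leaving out a replicate was not possible either. Values near the floor, such as those of Fosl1, are the least certain, since no detection calls were used.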
